A study of Rattus norvegicus with 23 samples.

Results

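Siglecs are cell-surface receptors of the immunoglobulin superfamily that recognise sialic acid, the sugar that caps most glycans on mammalian cells. The data held 5 of them in the set described here, namely Siglec5, Siglec10, Cd33, Cd22 and Siglec1, out of 20301 genes measured in isolated rat microglia. They were listed by name as a receptor family and chosen by a rule that used the difference between LPS and Sham, in which Siglec5 was lower after LPS alone. That difference is therefore given as a description of all 5 genes without a test, and the same holds for every comparison of Siglec5 that shares samples with it.

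Wistar rat pups of both sexes were operated or sham-operated at postnatal day 7, and RNA was sequenced from the cells that CD11b/c magnetic beads retained 24 h later. The 6 Sham samples came from pups with a neck incision under isoflurane and no listed injection, and the 5 LPS samples from pups given 0.1 mg/kg Escherichia coli lipopolysaccharide (LPS) intraperitoneally 4 h before that sham operation. The 6 NaCl/HI samples came from pups injected with saline, and the 6 LPS/HI samples from pups given the same LPS dose, before hypoxia-ischemia (HI), which was ligation of the left common carotid artery followed by 50 min at 8% oxygen. Each Sham or LPS sample was the entire brain of 1 pup and each HI sample the ipsilateral hemispheres of 2 pups, so that HI, the tissue taken and pooling cannot be told apart wherever HI samples are set against Sham or LPS samples.

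Most Siglecs carry an immunoreceptor tyrosine-based inhibitory motif (ITIM) in the cytoplasmic tail, which Src-family kinases phosphorylate and which then recruits the phosphatases SHP-1 and SHP-2. Bound sialic acid on neighbouring cells or on the same cell thus dampens activating receptors, and in microglia these receptors are known as brakes on phagocytosis and inflammatory signalling. A few Siglecs have no ITIM, among them sialoadhesin, the product of Siglec1, which serves in adhesion and the capture of sialylated particles.

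Expression is given on a log2 scale, as rlog values from which the study had removed 3 surrogate variables. A difference of 1 is a doubling, and rlog draws weakly counted genes toward their mean, which makes their differences smaller. The values are not corrected for transcript length, and levels of different genes were therefore not compared. Medians of the libraries lay between 7.75 and 7.82, counts were not used here and the depth of each sample is unknown. The mean of 10 microglia markers was between 14.05 and 14.42 in all 23 samples, and the labelled cell type therefore had its markers, among them P2ry12 and Tmem119. Because these are bulk samples, fewer cells of a type and less RNA per cell cannot be told apart.

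The promoters of the 3 genes that stood farthest from Sham after LPS among the 5 members are shown first, because Siglec5 and Siglec10 were lower and Cd22 was higher there. RefSeq gave 1 promoter for each of them on the GRCr8 assembly, each running from 250 bases before to 50 bases after the gene's start. In the order of protein-coding genes of that assembly, Siglec5 and Siglec10 were direct neighbours on chromosome 1. Cd33 lay on the same chromosome with 10 coding genes between it and Siglec5, Cd22 lay farther off beside Mag, another Siglec gene, and Siglec1 was on chromosome 3. The sequences run 5′ to 3′ on the strand of the gene, with Siglec5 at chr1:102904656-102904955 on the plus strand, Siglec10 at chr1:102953668-102953967 on the plus strand and Cd22 at chr1:95259681-95259980 on the minus strand. Capitals mark the letters GAGGAA or their reverse complement TTCCTC, the core bound by PU.1, the factor that specifies macrophages and microglia.
Siglec5: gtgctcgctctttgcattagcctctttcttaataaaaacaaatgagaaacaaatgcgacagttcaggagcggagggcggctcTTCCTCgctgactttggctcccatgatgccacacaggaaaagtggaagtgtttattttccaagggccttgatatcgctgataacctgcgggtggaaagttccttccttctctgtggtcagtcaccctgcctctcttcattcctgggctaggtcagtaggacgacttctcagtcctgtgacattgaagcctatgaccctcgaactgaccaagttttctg
Siglec10: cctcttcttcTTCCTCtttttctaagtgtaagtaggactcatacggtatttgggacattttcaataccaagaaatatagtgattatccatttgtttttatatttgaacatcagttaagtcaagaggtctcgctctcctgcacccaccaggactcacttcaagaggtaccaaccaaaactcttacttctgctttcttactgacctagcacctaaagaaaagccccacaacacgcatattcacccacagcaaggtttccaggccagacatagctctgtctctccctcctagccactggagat
Cd22: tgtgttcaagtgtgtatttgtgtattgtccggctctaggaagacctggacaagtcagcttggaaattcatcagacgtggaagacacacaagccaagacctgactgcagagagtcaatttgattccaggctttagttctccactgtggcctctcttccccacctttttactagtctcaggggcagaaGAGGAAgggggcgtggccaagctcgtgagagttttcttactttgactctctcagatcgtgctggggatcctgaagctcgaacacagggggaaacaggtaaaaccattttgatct
Each of these promoters held 1 match to the PU.1 core. The first base of the match lay at position -168 from the start in Siglec5, at -240 in Siglec10 and at -64 in Cd22, in reverse orientation in the first 2 of these and forward in Cd22. The core occurred on either strand in 27.6% of the 33469 rat promoters of this length. The AP-1 letters TGANTCA occurred in 7.33% of all promoters, the interferon-stimulated response element GAAANNGAAA in 3.92% and an NF-kB motif in 7.51%, and none of these 3 was found in the promoters of Siglec5, Siglec10 or Cd22. In these windows the downward and the upward members were thus alike in the letters searched, and a match is a description of letters and not of binding. Neither promoter listed for Cd33 held any of the 4 motifs.

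Siglec5, a CD33-related Siglec, was expressed at 11.72 ± 0.20 in Sham (SD, n = 6), with a lowest value of 11.47, a median of 11.71 and a highest value of 12.06. The 5 LPS samples had 10.98, 10.86, 10.999, 10.81 and 11.18. All of them lay under every Sham sample. The difference of LPS from Sham was -0.76 with a standard error (SE) of 0.12, or 0.592 times the Sham level, and it was the value by which the set had been chosen. It was -0.72 among replicates 1 to 3, whose libraries are numbered 1 to 12, and -0.78 among the later replicates, whose libraries are numbered 13 to 23. Markers of several cell types moved in the same contrast, in which 10.2% of all genes were upregulated and 7.56% downregulated. Of 10 microglia markers 5 were downregulated and 1 was upregulated, with list means from 14.15 to 14.42 in Sham and from 14.05 to 14.21 in LPS, and of 9 border-associated macrophage markers 2 were downregulated and 1 was upregulated, with list means from 10.49 to 11.21 and from 10.41 to 10.74. Of 13 neutrophil markers 2 were downregulated and 1 was upregulated, with list means from 6.46 to 6.90 in Sham and from 6.39 to 6.85 in LPS, and of 10 monocyte markers 2 were upregulated, with list means from 8.40 to 8.97 and from 8.81 to 9.11. Of 8 oligodendrocyte markers 1 was downregulated, with a median difference of -0.60 and list means from 6.89 to 8.04 in Sham and from 6.84 to 7.25 in LPS. After group means had been subtracted, Siglec5 had a Pearson's r of 0.70 with the monocyte list, 0.69 with the neutrophil list, 0.28 with the eosinophil and basophil list, 0.07 with the oligodendrocyte list, -0.0041 with the B cell list, -0.12 with the microglia list and -0.36 with the border-associated macrophage list (n = 23), given as a description. The part of these cells in the lower Siglec5 was not tested.

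In both HI groups the Siglec5 levels overlapped with Sham. The NaCl/HI samples averaged 11.62 ± 0.23 (SD, n = 6) with values from 11.36 to 11.95 and a median of 11.59, a difference from Sham of -0.10 (SE 0.11). The LPS/HI samples averaged 11.42 ± 0.23 (SD, n = 6) with values from 11.13 to 11.73 and a median of 11.41. LPS/HI thus lay between the groups, -0.30 (SE 0.11) from Sham and 0.46 (SE 0.12) from LPS. All 6 LPS/HI samples were above the mean of LPS, although the lowest of them was under the highest LPS sample, while NaCl/HI and LPS did not overlap. Neutrophil markers were also higher on average in LPS/HI than in LPS, with list means from 6.70 to 7.50 and from 6.39 to 6.85, a median difference of 0.49 and 1 of 13 upregulated beside 1.22% of all genes. Oligodendrocyte markers differed by a median of 0.49 too, with list means from 6.95 to 7.99 in LPS/HI and from 6.84 to 7.25 in LPS and 0 of 8 called in limma (1 at an unadjusted p under 0.05). Of 10 monocyte markers 1 was lower in LPS/HI than in LPS beside 0.719% of all genes, while their median difference was 0.16. In limma 0 of 9 border-associated macrophage, 0 of 10 microglia, 0 of 10 B cell and 0 of 8 eosinophil and basophil markers were called. Their unadjusted counts at p under 0.05 were 2, 2, 1 and 2, and their median differences 0.235, 0.06, -0.04 and 0.09. The part of these cells in the Siglec5 difference was not tested.

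The difference of means between LPS/HI and NaCl/HI used no sample of the contrast that put Siglec5 forward, and it was therefore tested. The estimate of the spread was shared by all 4 groups, so the SE, interval and p also drew on the Sham and LPS samples. LPS/HI differed from NaCl/HI by -0.19 (SE 0.11), the 95% confidence interval ran from -0.43 to 0.04, and 5 of 6 LPS/HI samples were under the NaCl/HI mean. This difference did not pass in limma over all genes, with an adjusted p of 0.582. The effect of LPS on Siglec5 was -0.76 without HI and -0.19 with HI, and the difference between both effects was 0.56 (SE 0.17), given without a test because it contains the LPS against Sham contrast. These effects also differed in the tissue taken, pooling and control injection, which cannot be told apart from HI. Within NaCl/HI the replicates 1 to 3 averaged 11.81 and the replicates 4 to 6 averaged 11.43, and these ranges did not overlap. Accordingly NaCl/HI against Sham was 0.14 in the first and -0.35 in the second set of libraries.

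**Figure D1:**
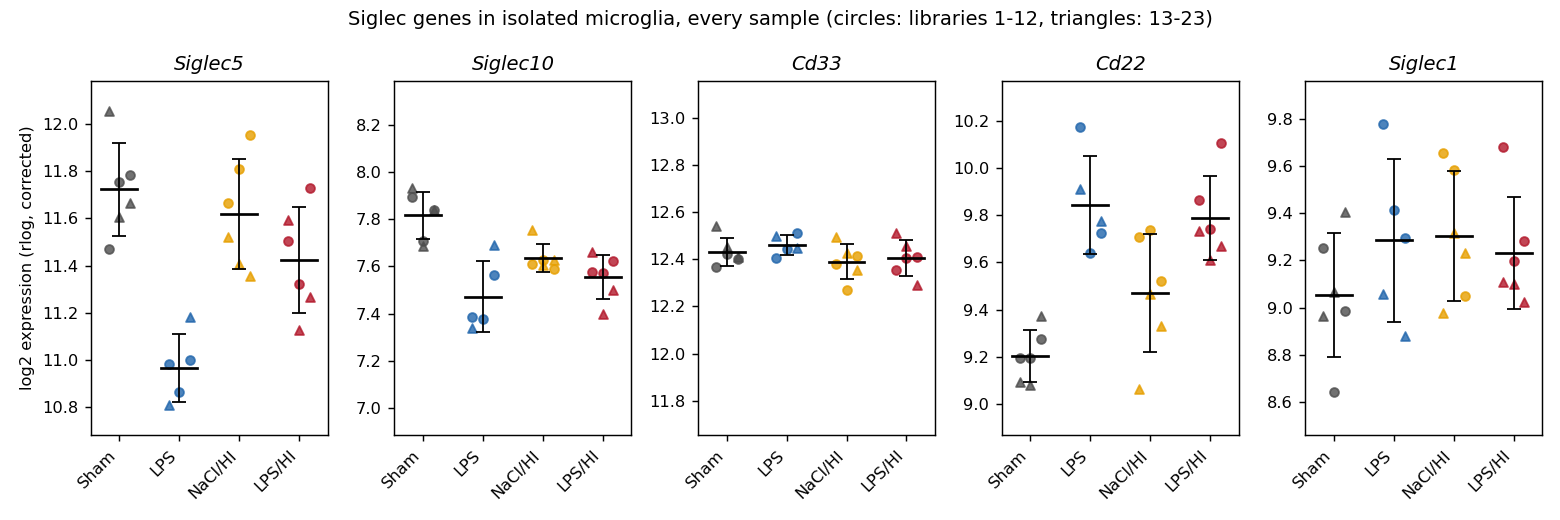
Log2 expression (rlog, corrected) of each Siglec gene in every sample, with 1 panel per gene, all panels spanning the same number of log2 units on different levels. Circles are libraries 1 to 12, triangles libraries 13 to 23, and bars show the mean ± SD of each group (5 LPS samples, 6 in every other group). All LPS samples are under all Sham samples for Siglec5 and above them for Cd22, while the Cd33 values lie within 12.27 to 12.54.

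Siglec10, the neighbour of Siglec5, is listed by RefSeq with Siglecg as a synonym, after the mouse receptor that binds CD24 and restrains responses to tissue damage. In Sham it was expressed at 7.82 ± 0.10 (SD, n = 6), from 7.69 through a median of 7.84 to 7.93. The 5 LPS samples had 7.39, 7.38, 7.56, 7.34 and 7.69, a difference of -0.35 (SE 0.07) described without a test. All 5 were under the Sham mean, and replicate 5 alone reached into the Sham range.
The mean Siglec10 levels of both HI groups lay between those of LPS and Sham. NaCl/HI averaged 7.64 ± 0.06 (SD, n = 6) with values from 7.59 to 7.76, and LPS/HI averaged 7.56 ± 0.09 (SD, n = 6) with values from 7.40 to 7.66. Every LPS/HI sample was under every Sham sample, and Siglec10 was downregulated, with a difference of -0.26 (SE 0.07) and an adjusted p of 0.021 in limma over all genes. Without LPS/HI replicate 5 the adjusted p was 0.0594 and the call was lost. NaCl/HI against Sham was -0.18 (SE 0.07, 95% confidence interval -0.32 to -0.04), with all 6 samples under the Sham mean and an adjusted p of 0.229. LPS/HI differed from LPS by 0.08 (SE 0.07, 95% confidence interval -0.06 to 0.23, adjusted p 0.63), and LPS/HI from NaCl/HI by -0.08 (SE 0.07, 95% confidence interval -0.22 to 0.06, adjusted p 0.708).

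Cd22, best known as the ITIM receptor of B cells and also present on microglia, moved the other way. In Sham it was expressed at 9.20 ± 0.11 (SD, n = 6), from 9.08 through a median of 9.20 to 9.37. The 5 LPS samples had 10.17, 9.64, 9.72, 9.91 and 9.77, all above every Sham sample. The difference was 0.64 (SE 0.11), or 1.56-fold, described without a test, and it was 0.62 in the first and 0.66 in the second set of libraries.
The LPS/HI samples averaged 9.79 ± 0.18 (SD, n = 6), with values from 9.61 to 10.11 and a median of 9.74. All 6 were above every Sham sample, and Cd22 was upregulated by 0.59 (SE 0.11) with an adjusted p of 0.00368. NaCl/HI averaged 9.47 ± 0.25 (SD, n = 6), from 9.06 to 9.74 with a median of 9.49. This group overlapped with Sham, from which it differed by 0.27 (SE 0.11, 95% confidence interval 0.04 to 0.49, adjusted p 0.264), and with LPS/HI. NaCl/HI against Sham was 0.43 in the first and 0.10 in the second set of libraries, and the NaCl/HI samples of both sets did not overlap, with 9.52 to 9.74 and 9.06 to 9.46. LPS/HI was 0.32 (SE 0.11) above NaCl/HI, with a 95% confidence interval from 0.09 to 0.54 and all 6 samples above the NaCl/HI mean, but the adjusted p was 0.248. Between LPS/HI and LPS the difference was -0.06 (SE 0.11, 95% confidence interval -0.29 to 0.18, adjusted p 0.879).

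Markers of B cells were examined beside Cd22. The mean of 10 B cell markers ranged from 4.40 to 4.53 in Sham, from 4.43 to 4.63 in LPS, from 4.41 to 4.52 in NaCl/HI and from 4.46 to 4.54 in LPS/HI. Over all samples Ms4a1 lay between 0.68 and 1.01, Pax5 between 0.70 and 0.90, Cr2 between 1.61 and 1.99, Cd79a between 3.49 and 4.09, Fcrla between 5.87 and 6.63, Tnfrsf13c between 6.07 and 6.57, Blk between 6.30 and 7.02 and Ebf1 between 7.58 and 8.06, while the lowest value of the table was -1.35. These genes are not compared with each other, and none was at 0. Cd79b, a subunit of the B cell receptor complex, was 6.24 ± 0.22 in Sham (SD, n = 6) and 6.76 ± 0.04 in LPS (SD, n = 5). In LPS against Sham 2 of the 10 markers were upregulated and 1 was downregulated, beside 10.2% and 7.56% of all genes. In LPS/HI against Sham, in which 5.3% of all genes were upregulated and 3.48% downregulated, 1 was upregulated.
Markers of other cell types moved in LPS/HI against Sham as well, and their counts stand beside the same shares of all genes. The mean of 13 neutrophil markers ranged from 6.46 to 6.90 in Sham and from 6.70 to 7.50 in LPS/HI, with 4 of 13 upregulated, and that of 10 monocyte markers from 8.40 to 8.97 and from 8.79 to 9.54, with 3 of 10 upregulated. The mean of 9 border-associated macrophage markers ranged from 10.49 to 11.21 in Sham and from 10.59 to 10.82 in LPS/HI, with 1 of 9 downregulated. That of 10 microglia markers ranged from 14.15 to 14.42 in Sham and from 14.11 to 14.31 in LPS/HI, with 1 of 10 downregulated. After group means had been subtracted, Cd22 had a Pearson's r of 0.64 with the monocyte list, 0.62 with the neutrophil list, 0.11 with the oligodendrocyte list, 0.08 with the B cell list, 0.08 with the eosinophil and basophil list, -0.20 with the border-associated macrophage list and -0.21 with the microglia list (n = 23), given as a description. Siglec10 had 0.52 with the border-associated macrophage list, 0.44 with the eosinophil and basophil list, 0.39 with the B cell list, 0.28 with the neutrophil list, 0.20 with the microglia list, 0.10 with the monocyte list and 0.08 with the oligodendrocyte list. The part of these cells in the differences of Cd22 and Siglec10 was not tested.

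Cd33, the receptor after which the CD33-related Siglecs are named and a gene linked to Alzheimer's disease in humans, stayed within a narrow range. It was expressed at 12.43 ± 0.06 in Sham (SD, n = 6), 12.46 ± 0.04 in LPS (SD, n = 5), 12.39 ± 0.08 in NaCl/HI (SD, n = 6) and 12.41 ± 0.08 in LPS/HI (SD, n = 6). The samples of all groups lay between 12.27 and 12.54 and overlapped. LPS against Sham was 0.03 (SE 0.05). LPS/HI against Sham was -0.03 with a 95% confidence interval from -0.12 to 0.06 (adjusted p 0.74), and LPS/HI against NaCl/HI was 0.01 with an interval from -0.08 to 0.11 (adjusted p 0.934).

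Siglec1 had the largest SD of the 5 members in each of the 4 groups. It was expressed at 9.05 ± 0.26 in Sham (SD, n = 6), 9.29 ± 0.35 in LPS (SD, n = 5), 9.30 ± 0.28 in NaCl/HI (SD, n = 6) and 9.23 ± 0.24 in LPS/HI (SD, n = 6), and all groups overlapped between 8.64 and 9.78. NaCl/HI against Sham was 0.25 with a 95% confidence interval from -0.07 to 0.57 (adjusted p 0.458), and LPS/HI against Sham was 0.18 with an interval from -0.14 to 0.50 (adjusted p 0.483). The first and the second set of libraries differed in direction, since LPS against Sham was 0.54 in libraries 1 to 12 and -0.18 in libraries 13 to 23, and LPS/HI against Sham was 0.43 and -0.07.
Siglec1 is known as an interferon-inducible gene, and its values were set beside the mean of 18 interferon-stimulated genes in each sample. Pearson's r was 0.646 and Spearman's rho 0.735 over all 23 samples, given as a description because the samples share their groups. Within libraries 1 to 12 r was 0.80 and rho 0.874 (n = 12), and within libraries 13 to 23 r was 0.381 and rho 0.655 (n = 11). The mean of the interferon list ranged from 7.96 to 8.12 in Sham, from 7.89 to 8.44 in LPS, from 7.99 to 8.44 in NaCl/HI and from 8.20 to 8.44 in LPS/HI. All LPS/HI samples were thus above all Sham samples in the interferon list, whereas Siglec1 itself overlapped.

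**Figure D2:**
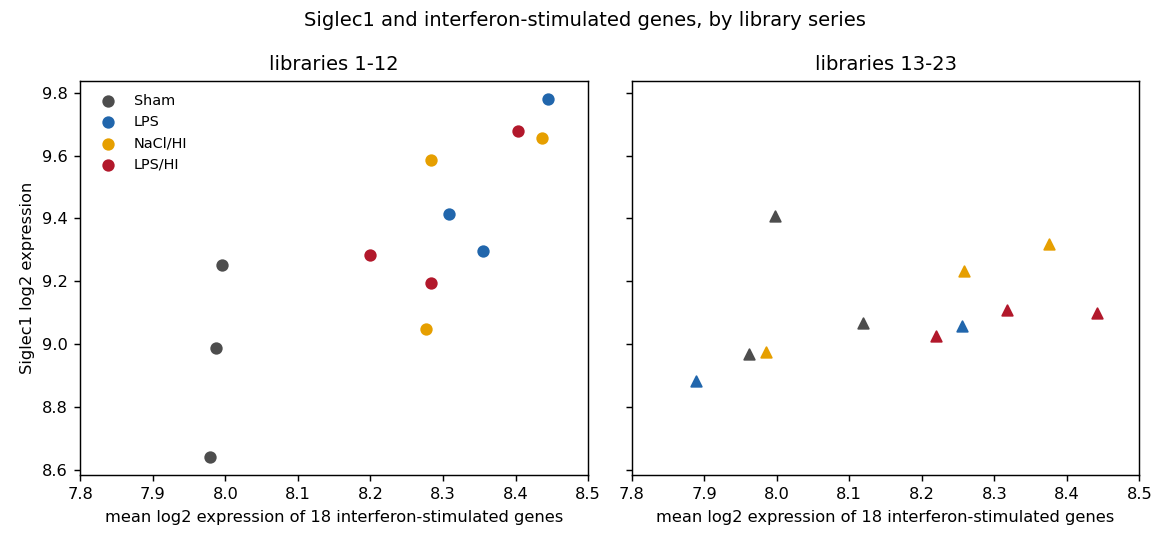
Log2 expression of Siglec1 (vertical axis) against the mean log2 expression of 18 interferon-stimulated genes (horizontal axis), with 1 point per sample, coloured by group and split into libraries 1 to 12 and 13 to 23. Pearson's r was 0.80 and Spearman's rho 0.874 over the 12 samples on the left, and 0.381 and 0.655 over the 11 samples on the right.

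Across the 4 comparisons that could be tested, few members passed. In NaCl/HI against Sham 0 of 4 tested members were called in limma, beside 0.00985% of all genes, with 2 (Siglec10 and Cd22) at an unadjusted p under 0.05. The exact Wilcoxon test of ranks called 0 after adjustment and 1 at an unadjusted p under 0.05. Of the same 4, 2 were called between LPS/HI and Sham, Cd22 upward and Siglec10 downward, beside 8.77% of all genes. Between LPS/HI and LPS 0 of 4 were called, beside 1.94% of all genes, with 0 at an unadjusted p under 0.05, and the Wilcoxon test also had 0 of each. Between LPS/HI and NaCl/HI 0 of 5 were called, beside 0.202% of all genes, with 1 (Cd22) at an unadjusted p under 0.05, and the Wilcoxon test had 0 after adjustment and 1 unadjusted. For LPS against Sham, which the rule used, 2 of 5 members had groups that did not overlap, and nothing is read from their number, while 13.9% of all genes had none either.

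**Figure D3:**
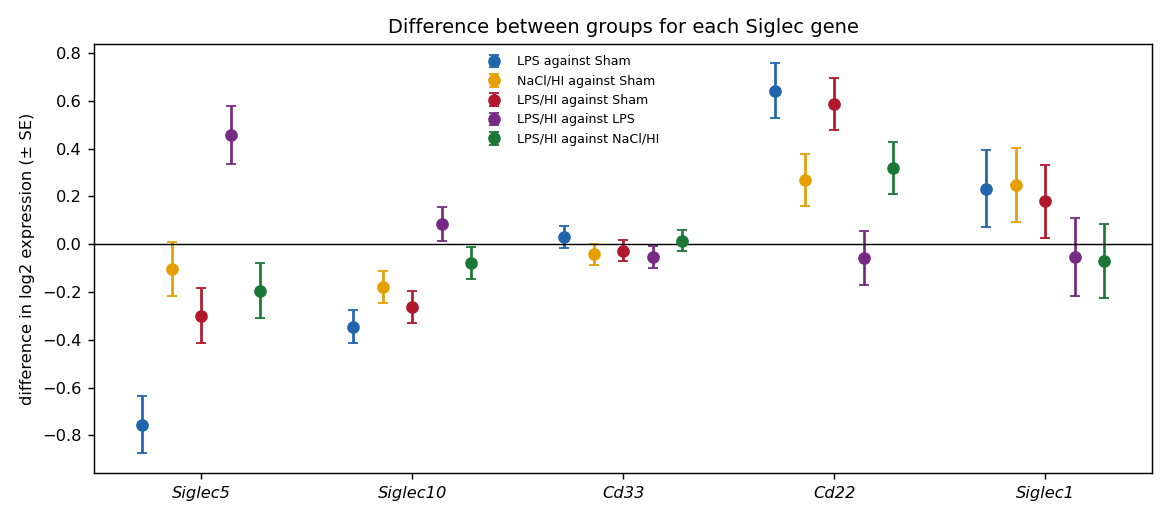
Difference in log2 expression between groups (vertical axis) for each Siglec gene, with points for the fitted difference and bars for ± 1 SE in 5 comparisons. LPS against Sham is a description, since it chose the genes. Siglec5 has its lowest point at -0.76 in LPS against Sham and its highest at 0.46 in LPS/HI against LPS, and Cd22 lies above 0 in the comparisons with Sham.

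The members also varied together or apart from sample to sample. Siglec5 and Siglec10 had a Pearson's r of 0.73 over 23 samples and 0.45 after group means had been subtracted. Siglec10 and Cd22 had -0.68 over all samples and -0.11 within groups, and Siglec5 and Cd22 had -0.46 over all samples and 0.40 within groups. The opposite order of Siglec5 and Cd22 was thus a property of the group means and not of the samples within groups. Siglec1 and Cd22 had 0.53 over all samples and 0.60 within groups. These samples share groups, libraries and the removed surrogate variables, and the coefficients describe this table.
Of all other genes, the 3 most like Siglec5 over the 23 samples were Ankrd55 (r = 0.840), Ppp3cc (r = 0.825) and Klf12 (r = 0.822). Those most like Siglec10 were Col25a1 (r = 0.913), Mertk (r = 0.908), a receptor for the uptake of dying cells, and Sstr3 (r = 0.884). Cd22 was most like the complement component C3 (r = 0.902), the coagulation factor gene F10 (r = 0.892) and the complement gene C4b (r = 0.882). Siglec1 was most like Axl (r = 0.781), a receptor related to Mertk, then Rnf213 (r = 0.757) and AABR07060145.1 (r = 0.750), and Cd33 most like Tmem154 (r = 0.785), Lpcat2 (r = 0.758) and Alg6 (r = 0.755).

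The other Siglec genes in the table were Mag, Siglec15, Siglec8, Siglecl1 and Siglech. In each of the 5 comparisons 0 of these 5 were called in limma or by the Wilcoxon test, with 1 at an unadjusted p under 0.05 in limma. Siglec8 was 9.56 ± 0.17 in Sham (SD, n = 6) and 9.77 ± 0.24 in LPS/HI (SD, n = 6), a difference of 0.21 (SE 0.09, adjusted p 0.133). Siglec15, which signals through the activating adaptor DAP12, was 6.70 ± 0.29 in Sham and 6.44 ± 0.23 in LPS (SD, n = 6 and n = 5), a difference of -0.26 (SE 0.12, adjusted p 0.136). Siglech lay between -1.09 and -0.999 in all samples, at the low end of the table. Mag, the myelin Siglec of oligodendrocytes, ranged from 5.99 to 10.25, with its highest value in NaCl/HI, the group whose oligodendrocyte list mean also ran highest, to 9.02.

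Of 90 measured genes in 7 lists around the Siglecs, 19 were called in LPS against Sham, 15 upregulated and 4 downregulated, or 21.1% beside 17.8% of all genes. The Wilcoxon test called 16 of the 90 beside 3887 of all 20301 genes, and 1 of the 7 ligand genes. The median difference of the 90 genes was -0.01 and that of all genes -0.01. The genes of these lists were not chosen by the rule and were tested, although the lists were chosen with earlier results of these data known. They comprise the receptors above, the signalling proteins under the ITIM, the enzymes that make, attach and remove sialic acid, the glycoproteins that carry it and other receptors with an ITIM or an activating partner.

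Among 18 signalling genes 5 were upregulated in LPS against Sham and 0 downregulated, or 27.8% beside the same 17.8% of all genes called and 10.2% upregulated. Among them were Hcst, which encodes the adaptor DAP10, at 0.27 (SE 0.07, adjusted p 0.0152), and Tyrobp, which encodes the adaptor DAP12, at 0.25 (SE 0.06, adjusted p 0.00337). All 5 LPS samples of Tyrobp lay between 13.11 and 13.26, above the Sham range of 12.86 to 13.02. Ptpn6, which encodes the phosphatase SHP-1, and Plcg2 were upregulated too. In LPS/HI against Sham 2 signalling genes were upregulated, or 11.1%, where 8.77% of all genes were called and 5.3% upregulated. Of these signalling genes Socs3, a suppressor of cytokine signalling, differed by 0.48 (SE 0.15, adjusted p 0.0447). Plcg2, a phospholipase downstream of activating receptors, was the 1 signalling gene called in LPS/HI against LPS, where 1.94% of all genes were called, at -0.19 (SE 0.05, adjusted p 0.0488). The Wilcoxon test called 0 of the 18 signalling genes and 0 of all genes there.

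Of 12 genes of sialic acid synthesis and turnover 1, Nans, was called in LPS against Sham and in LPS/HI against Sham, or 8.33% in each. Of all genes 17.8% and 8.77% were called in these comparisons, and 10.2% and 5.3% were upregulated. Nans encodes the synthase that forms the sialic acid backbone, and it was upregulated by 0.24 (SE 0.06, adjusted p 0.00418) in LPS against Sham and by 0.18 (SE 0.05, adjusted p 0.0325) in LPS/HI against Sham. Its group means were 10.66 ± 0.07 in Sham, 10.90 ± 0.12 in LPS, 10.80 ± 0.08 in NaCl/HI and 10.84 ± 0.07 in LPS/HI (SD, n = 6, 5, 6 and 6).

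Of 19 sialyltransferases, which attach sialic acid to glycans, 3 were downregulated and 0 upregulated in LPS against Sham, with a median difference of -0.12 over the list. That is 15.8% of the list, beside 17.8% of all genes called and 7.56% of all genes downregulated. These were St6galnac3 at -0.21 (SE 0.07, adjusted p 0.0397), St3gal6 at -0.18 (SE 0.06, adjusted p 0.0456) and St3gal2 at -0.13 (adjusted p 0.024). The sialyltransferases supplied the 1 called gene of the 90 in LPS/HI against NaCl/HI. It was St3gal5, which encodes the GM3 ganglioside synthase, with values from 10.25 to 10.32 in LPS/HI and from 10.44 to 10.76 in NaCl/HI, a difference of -0.32 (SE 0.06, adjusted p 0.0401). St8sia4, a polysialyltransferase, was lower in LPS/HI than in LPS, with a difference of -0.33 (SE 0.07, adjusted p 0.0229), and its samples lay between 10.25 and 10.60 in LPS/HI and between 10.67 and 10.99 in LPS. With each library left out, 0 to 3 of the 90 were called in LPS/HI against NaCl/HI and 0 to 2 in LPS/HI against LPS. The exact Wilcoxon test called 0 of the 90 and 0 of all genes in each of these comparisons.

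Of 7 genes for Siglec ligands 2 were upregulated in LPS against Sham and also in LPS/HI against Sham, or 28.6% of a short list beside 17.8% and 8.77% of all genes. Lgals3bp, a secreted glycoprotein that binds several CD33-related Siglecs, differed by 0.36 (SE 0.07, adjusted p 0.00189) and 0.27 (SE 0.07, adjusted p 0.024). Spn, the sialylated surface protein CD43, differed by 0.28 (SE 0.10, adjusted p 0.0479) and 0.44 (SE 0.09, adjusted p 0.00704). Both comparisons share the Sham samples.

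The other ITIM receptors were compared because they use the same phosphatases. Of 19 genes 5 were upregulated and 1 downregulated in LPS against Sham, or 31.6% beside the 17.8% of all genes. Clec12a, an ITIM receptor for dying cells, differed by 0.82 (SE 0.22, adjusted p 0.0113), Lilrb3 by 0.75 (SE 0.13, adjusted p 0.000277), and Cd5 by -0.37 (SE 0.10, adjusted p 0.0106). The LPS samples of Lilrb3 lay between 9.19 and 9.79 and the Sham samples between 8.45 and 9.05. The upregulated genes in LPS/HI against Sham were 3, or 15.8% beside 8.77% of all genes, namely Clec12a by 0.66 (SE 0.21, adjusted p 0.047), Pirb by 0.42 (SE 0.07, adjusted p 0.00256) and the adhesion receptor gene Pecam1 by 0.17 (SE 0.05, adjusted p 0.0242).
Of 10 receptors coupled to activating adaptors 2 were upregulated in LPS against Sham, both Fc receptors for IgG, or 20% of the list. Of all genes 17.8% were called there and 10.2% were upregulated. Fcgr3a differed by 0.37 (SE 0.10, adjusted p 0.012) and Fcgr1a by 0.16 (SE 0.05, adjusted p 0.0244), and Fcgr3a was upregulated again in LPS/HI against Sham by 0.37 (SE 0.09, adjusted p 0.0208).

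**Figure D4:**
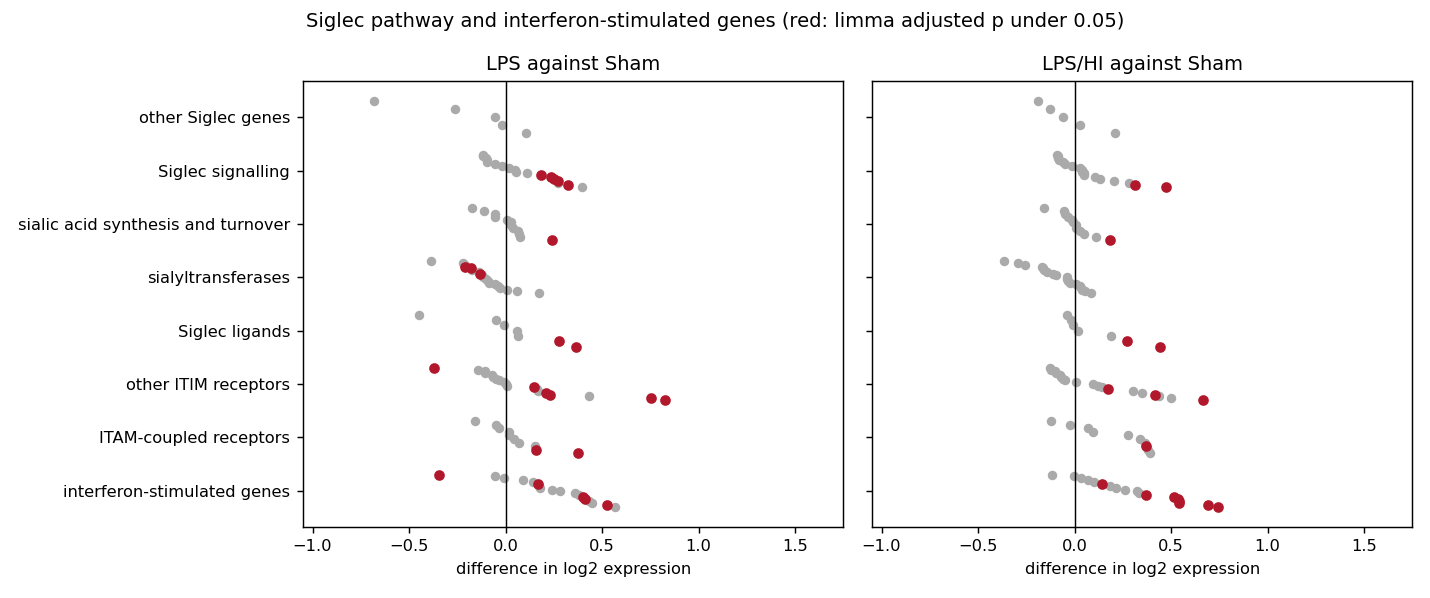
Difference in log2 expression (horizontal axis) of each gene in the Siglec-related lists and the interferon-stimulated list, in LPS against Sham (left) and LPS/HI against Sham (right), with red points for genes at a limma adjusted p under 0.05. Sialyltransferases have red points on the negative side in LPS against Sham and none in LPS/HI against Sham.

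Of the 90 genes 9 were upregulated and 0 downregulated between LPS/HI and Sham, or 10% beside 8.77% of all genes. This number rested on single libraries, since leaving out LPS/HI replicate 5 gave 3 and leaving out LPS/HI replicate 2 gave 4. The number was 5 when LPS/HI replicate 3, LPS/HI replicate 4 or Sham replicate 4 was left out. In NaCl/HI against Sham 0 of the 90 were called in limma and 0 by the Wilcoxon test, with 20 and 15 at an unadjusted p under 0.05 beside 3005 and 2579 of all 20301 genes, and 5 were called in limma without NaCl/HI replicate 4. In LPS/HI against LPS 2 were called, or 2.22% beside 1.94% of all genes, and in LPS/HI against NaCl/HI 1, or 1.11% beside 0.202%, all lower in LPS/HI.

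Of the 18 interferon-stimulated genes 4 were upregulated and 1 was downregulated in LPS against Sham, or 27.8% beside 17.8% of all genes, led by Ifi27 at 0.52 (SE 0.09, adjusted p 0.000295), Oas1a at 0.41 (SE 0.11, adjusted p 0.0161) and Irf7 at 0.40 (SE 0.13, adjusted p 0.0377). The downregulated gene was Ifit1. The Wilcoxon test called 1 of the 18 there beside 3887 of all 20301 genes, so that the larger share rests on limma. By the same test 8 of 18 were called in LPS/HI against Sham beside 1998 of all genes. A further comparison, LPS/HI against Sham, had 8 upregulated, or 44.4% beside 8.77% of all genes, led by Mx2 at 0.74 (SE 0.21, adjusted p 0.0294), Ifit3 at 0.69 (SE 0.18, adjusted p 0.0219) and Isg15 at 0.54 (SE 0.16, adjusted p 0.0361), and their 6 LPS/HI samples were above all Sham samples. In NaCl/HI against Sham 0 were called in limma and 0 by the Wilcoxon test, with 9 and 9 at an unadjusted p under 0.05 beside the same 3005 and 2579 of all genes.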

How the data were processed

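RNA-sequencing values of 6 Sham, 5 LPS, 6 NaCl/HI and 6 LPS/HI microglia samples were taken from the table the authors deposited, and groups from the sample titles. The authors quantified reads with kallisto 0.48.0 on mRatBN7.2, made the deposited log2 values with the rlog transformation of DESeq2, and removed 3 surrogate variables with sva and limma. The removal lowers the spread within groups, so that p values can come out too low. Quality tools in the submitters' processing notes were FastQC 0.11.9 and MultiQC 1.14. Counts were not used here, and the depth is unknown.

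All 20301 genes were fitted with limma 3.58.1 in R 4.3.3 (4 group means, variance trend, residual degrees of freedom lowered from 19 to 16), with Benjamini-Hochberg adjustment over all genes and calls at an adjusted p under 0.05. No gene was filtered out. The fit was tested on simulated data. Python 3.11.15 searched promoters and drew plots. Members and lists were chosen with earlier results of these data known. Of each list, up to 3 called genes with the largest difference per comparison were named, and for each member the 3 genes with the highest r. Genes named beyond this (Ptpn6, Ifit1, and Plcg2 in LPS against Sham) were chosen after their values were seen. Of the lists, Siglec6, Siglec12, Siglece, Siglecf, Cmah, Slc17a5, St3gal4, Aoc3, Sirpb1 and Ddx58 were not analysed here. Some genes that this rule names are left out of the text. How reads were divided between related Siglec genes was not tested. Pairing by replicate number, library series, filters, scaling, weights, other tests and leaving out each library were tried as alternatives. Eosinophil and basophil markers were measured too, with a list mean between 4.24 and 4.80 in all samples and 1 of 8 downregulated in LPS against Sham.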

Additional observations from a re-analysis of the deposited data

Results flagged for a closer look

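Among 124 groups of 5 or 6 samples, for 31 genes, 8 had 1 sample that stood apart from the others by Dixon's test. Chance alone does this in about 5% of groups. Of the Siglec receptors only Siglec10 was among them, with NaCl/HI replicate 4 at 7.76 above the nearest sample at 7.63. The same library was lowest for Nans (10.6, nearest 10.8) and for Spn (8.55, nearest 8.91). NaCl/HI replicate 6 was lowest for St3gal2 at 9.53 (nearest 9.65). LPS replicate 5 was lowest for Fcgr3a at 11.8 (nearest 12.2), for Oas1a at 6.16 (nearest 6.61) and for Mx2 at 8.40 (nearest 9.29), and it was the LPS sample with the highest Siglec10. LPS/HI replicate 5 was highest for Fcgr3a at 12.5 (nearest 12.1).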

How the results depend on the processing

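The differences of Siglec5, Siglec10 and Cd22 kept their direction under every alternative tried in LPS against Sham, where Siglec5 ranged from -0.81 to -0.69, Siglec10 from -0.40 to -0.31 and Cd22 from 0.56 to 0.69 with each library left out. In LPS/HI against Sham 1 to 2 tested Siglec receptors were called with each library left out, 1 with only the 2 groups compared, where Siglec10 had an adjusted p of 0.0507, and 0 when a fold change above 2 was required. Under that requirement no gene of the 90 related genes was called in any comparison. Siglec5 in LPS/HI against NaCl/HI was called only with array weights, at -0.29 (adjusted p 0.0256), as 1 member of 5, and over its other alternatives and left-out libraries the adjusted p was up to 0.885. The effect of the array weights also stood out for the 90 related genes, with 3 called in NaCl/HI against Sham, 36 in LPS/HI against Sham, 18 in LPS/HI against LPS and 17 in LPS/HI against NaCl/HI, and the cause was not tested.

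With the degrees of freedom not lowered, 14, 5 and 5 of the 90 were called in LPS/HI against Sham, LPS and NaCl/HI. Between LPS/HI and LPS 1 was called without the variance trend, with robust variances, with library series as a block or after quantile normalization, and 0 with only the 2 groups or by the exact Wilcoxon test. Between LPS/HI and NaCl/HI 0 were called without the trend, with only the 2 groups or by the Wilcoxon test, and 2 without the lowest 25% of genes. With each library left out, 13 to 19 were called in LPS against Sham, 0 to 5 in NaCl/HI against Sham, 3 to 12 in LPS/HI against Sham, 0 to 2 in LPS/HI against LPS and 0 to 3 in LPS/HI against NaCl/HI. Small differences changed sign, namely Cd33 in LPS/HI against NaCl/HI at -0.0017 after median centring and, where leaving out libraries gave -0.0092 to 0.037, at -0.0092 and -0.0066 without NaCl/HI replicate 2 or LPS/HI replicate 4, Siglec1 there at 0.00032 (lowest -0.16) without NaCl/HI replicate 1, and Siglec1 at 0.069 (lowest -0.16) and Cd22 at 0.026 (lowest -0.12) in LPS/HI against LPS without LPS replicate 1.

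After group means had been subtracted, the correlations of same-numbered samples ran from -0.475 to 0.47. Because 3 surrogate variables had been removed before, this check cannot tell whether replicate numbers paired the samples. With the replicate block 1 Siglec receptor was called in LPS/HI against Sham, Siglec10 having an adjusted p of 0.0563, and 5, 1 and 0 of the 90 genes in LPS/HI against Sham, LPS and NaCl/HI. Without counts the precision of weakly expressed genes such as Siglech is unknown.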

Other observations

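Genes that ran opposite to the Siglec receptors over the 23 samples were looked up after their values had been seen. Siglec10 ran most opposite to Nans, the sialic acid synthase, with a Pearson's r of -0.937 over all samples and -0.851 after group means had been subtracted, then to Bub3 (r = -0.934) and Tubb5 (r = -0.934). Siglec10 also ran against the mean of the 18 interferon-stimulated genes, with -0.75 over all samples and -0.64 within groups. Siglec5 ran most opposite to Fuca2 (r = -0.895), which encodes a fucosidase that trims glycans, then to Ilk (r = -0.887) and Cdc25b (r = -0.881). The 3 genes named for each receptor had the most negative r over all samples of the 20301 genes, and the coefficients describe this table only.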
